A study of Rattus norvegicus with 12 samples.

Results

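Transcripts of the cytosolic ribosomal proteins were followed in primary rat hepatocytes treated with diphenyl ethers, namely triclosan, diclosan and CCPB (1-chloro-3-(4-chlorophenoxy) benzene), and with the vehicle DMSO as the control. Members were the genes whose array probes, matched by RefSeq transcript, carry an Rpl or Rps symbol with a number, together with Rpsa and the stalk proteins Rplp0, Rplp1 and Rplp2. Kinases of the Rps6k family (7 with a probe), pseudogene names (3) and names ending in l and a number (14) were set aside by the same rule. The array carried 192 probes of 79 such genes, and 77 genes were measured among 20359 genes or transcripts in all, of which 33 belong to the small subunit, 41 to the large subunit and 3 to the stalk. The members not measured were Rpl23, whose 1 probe was above background on 11 arrays and had a non-uniform spot on DMSO replicate 3, and the muscle form Rpl3l, above background on 0 arrays. Rps27l and Rps4y2 fit the letter of the rule and were kept.

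The cells were cryopreserved hepatocytes of male Sprague Dawley rats, whose age is not given in the sources used here. They were cultured for 24 h and then held for 24 h with triclosan at 30 µM (3 arrays), diclosan at 30 µM (3 arrays), CCPB at 30 µM (3 arrays) or DMSO (3 arrays). Triclosan is a chlorinated diphenyl ether with a phenolic hydroxyl group and is used as an antibacterial agent. Diclosan keeps the hydroxyl group and has fewer chlorine atoms than triclosan, and CCPB is a chlorinated diphenyl ether without the hydroxyl group. The labels call the arrays of a group independent experiments and do not say whether the animals or lots of cells differed, so the p-values measure the spread between these experiments.

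A ribosome of the cytoplasm is built from a small and a large subunit. The small subunit reads the messenger RNA and the large subunit joins amino acids, and each of their proteins is made from its own gene. Messenger RNAs of ribosomal proteins are among the most abundant of a cell. In vertebrates they begin with a cytosine followed by a run of pyrimidines (a terminal oligopyrimidine, or TOP, motif), through which the kinase mTORC1 and the protein LARP1 set how strongly they are translated, so that their protein output can change while the transcript level does not. Hepatocytes secrete large amounts of plasma protein and depend on a high ribosome content. Several members, such as Rplp0, Rpl13a and Rps18, are widely used as reference genes in expression work.

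The sequence around the annotated transcription start was available for 62 of the 77 members in RefSeq (build GRCr8). The following 9 windows are shown because the start is where a TOP motif would lie, and they belong to 9 of the members described below. Each runs 5′ to 3′ on the strand of the gene from 12 bases before the start to 18 bases from the start on, so the 13th letter is the first transcribed base. Capitals mark the part of the pyrimidine run at the start that falls inside the window.
Rps3a, chr2:173827025-173827054, minus strand: ttgtacttccgCCCTTTTggctctcagagc
Rpl35, chr3:43165904-43165933, minus strand: CCCTTCCTCTTTCTCTCgaaccgggcggcc
Rpl10, chrX:157205838-157205867, plus strand: gcgtgggagcgTCTCTTTTCCTCTggcgcg
Rpl14, chr8:129163608-129163637, plus strand: cgggCCCTCTCCCTTCTCgctgagcgccgc
Rps18, chr20:4933733-4933762, plus strand: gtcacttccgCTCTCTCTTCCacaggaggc
Rpl35a, chr11:81235004-81235033, minus strand: ggtcttgCCTTCCTCTTTCCgccatcttgg
Rplp0, chr12:46718373-46718402, minus strand: cgcaccgcaCTTCTCTCgccaggcgtcctc
Rpl13a, chr1:104748896-104748925, minus strand: CTTCCTTTCCTaggcggctgccgaagatgg
Rps6, chr5:106420523-106420552, minus strand: gCCTCCTaggcggtcggctgtgtcaagatg

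In 7 of these 9 windows the first transcribed base was a C followed by 4 pyrimidines, and Rpl13a and Rps6 were the exceptions, with a run that ended before the annotated start. Over the 62 members 23 (37.1%) had such a start, against 2.63% of the 33469 rat genes in the table. A run of at least 8 pyrimidines overlapped the 20 bases around the start in 43 members (69.4%), against 13.2% of all genes. The run was a median of 10 bases long in members and 4 in all genes. Further motifs were looked for on both strands in the 300 bases from 250 before to 50 after the start. The ETS-type motif CCGGAAG occurred in 30.6% of members and 8.75% of all promoters, and the GC box GGGCGG in 58.1% of members and 33.1% of all promoters. TATAAA occurred in 12.9% of members and 14.2% of all promoters. AAGATGGCG occurred in 4.84% of members and 1.73% of all promoters. A match is a description of letters in the window and not evidence that a factor binds there.

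Ribosomal protein transcripts were among the brightest features of the arrays. Of the 77 members 74 lay in the top 5% of genes by mean signal, the median member stood at the 99.4th percentile, and no spot was saturated. The exceptions were Rps4y2 (84.3rd percentile), Rpl27 (88.9th percentile) and Rpl28 (94.2nd percentile). All 77 were above background on all 12 arrays. Values below are log2 signal over the 75th percentile of the same array, and they can be compared between groups for a probe but not between probes. Many members have further rat genes named after them with a pseudogene or l-number ending (36 for Rps2, 29 for Rps27a, 11 for Rps3a and 16 for Rpl35). Their sequences were not compared with the probes. Part of a probe's signal may come from such a copy and cannot be told apart.

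Per the file headers 2 slides were used. The arrays of triclosan and DMSO and replicates 1 and 2 of diclosan were on slide 1. The CCPB arrays were on slide 2 with replicate 3 of diclosan. CCPB therefore had no slide in common with triclosan or DMSO. A fit with the slide as a block can adjust for this only through diclosan, whose replicates were split over both slides. Between 51.6% and 55.5% of probes per array were well above background. All 12 hepatocyte markers were measured, with summed linear levels (in multiples of the array's 75th percentile) of 2236 to 2348 on triclosan arrays, 2220 to 2310 on diclosan arrays, 2359 to 2413 on CCPB arrays and 2285 to 2381 on DMSO arrays. The other liver cell types were mostly dim, with 5 of 12 macrophage markers measured (Csf1r, Cd163, Marco and Adgre1 were not) and 7 of 12 of stellate cells and fibroblasts (Lrat, Dcn, Lum and Pdgfrb were not). Of endothelial markers 4 of 10 were measured (Pecam1, Stab2 and Lyve1 were not), and of cholangiocyte markers 5 of 9 (Krt19 and Cftr were not). In bulk RNA fewer cells of a type and less RNA per cell cannot be told apart.

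Individual members varied little from array to array. Within groups the SD of a member had a median of 0.036 log2 units, against 0.081 over all genes. For the other 944 genes of the brightest 5% the median was 0.040. Among members the SD ran from 0.018 for Rpl5 to 0.057 for Rpl35a. Over all 12 arrays a member spanned between 0.055 and 0.23 log2 units. Members moved together within groups. The mean correlation between the within-group deviations of 2 members across the 12 arrays was 0.47, against 0.0048 over all pairs of the 20359 genes and 0.20 for the other 944 genes of the brightest 5%. These points share array, scaling and brightness, and the correlations are a description. Rpl35a had the widest spread, at 8.33, 8.26 and 8.31 on triclosan arrays, 8.23, 8.20 and 8.20 on diclosan arrays, 8.24, 8.09 and 8.28 on CCPB arrays and 8.31, 8.24 and 8.27 on DMSO arrays. Its lowest value came from CCPB replicate 2, and the other 11 arrays were above it.

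The common movement was visible in the median deviation of the 77 members from their own 12-array means. It was 0.036, -0.018 and -0.029 on triclosan arrays, 0.0019, -0.016 and -0.019 on diclosan arrays, 0.0081, -0.011 and 0.0072 on CCPB arrays and 0.044, 0.0021 and -0.0066 on DMSO arrays. Triclosan replicate 1 and DMSO replicate 1 were the high arrays, with 71 and 70 of the 77 members above their own mean. Triclosan replicate 3 was the lowest, with 9 of 77 above. The replicates of triclosan and of DMSO were thus further apart than the group means, which were -0.0037 ± 0.035 for triclosan, -0.011 ± 0.011 for diclosan, 0.0014 ± 0.011 for CCPB and 0.013 ± 0.027 for DMSO (SD, n = 3 each). The other genes of the brightest 5% deviated in the same direction on triclosan replicate 1 (0.022), triclosan replicate 3 (-0.036) and DMSO replicate 1 (0.022), and what the arrays have in common was not tested.

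**Figure D1:**
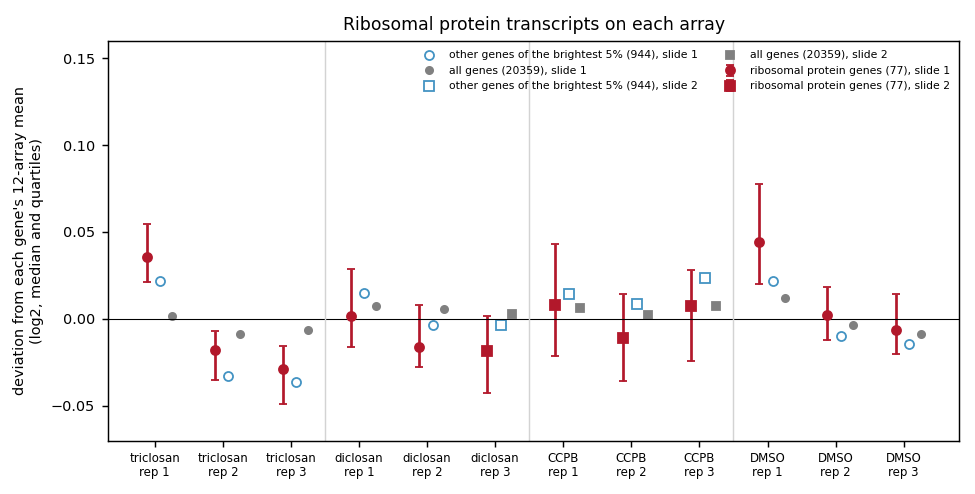
Median deviation (log2) from each gene's 12-array mean on each array, for the 77 ribosomal protein genes (red, bars are quartiles), the 944 other genes of the brightest 5% (open blue) and all 20359 genes (grey), with circles for slide 1 and squares for slide 2. Triclosan replicate 1 (0.036) and DMSO replicate 1 (0.044) stand above the other arrays, and the groups overlap.

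With triclosan the ribosomal protein transcripts were measured within a few percent of the DMSO level. Of the 77 members 0 passed limma's test over all genes (adjusted p under 0.05), where 0.0639% of all genes did, and 0 reached an unadjusted p under 0.05, where 11.6% of all genes did. The median log2 difference of members was -0.021, against -0.0056 over all genes, and members ran from -0.075 to 0.041. The 95% interval of a member reached 0.081 log2 units to either side in the median, against 0.14 over all genes. All 77 intervals lay within a 1.25-fold change in either direction, as did 69.7% of the intervals of all genes. Without DMSO replicate 1 the median of members was -0.0024, and without triclosan replicate 1 it was -0.044.

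Rplp0, which anchors the stalk that recruits elongation factors, had the lowest value of the comparison. It stood at 9.22, 9.24 and 9.19 on triclosan arrays, against 9.35, 9.30 and 9.23 on DMSO arrays (difference -0.075, interval -0.17 to 0.018, limma adjusted p = 0.534). The highest triclosan array lay above the lowest DMSO array, so the groups overlapped. Its partners in the stalk, Rplp1 and Rplp2, differed by -0.040 and 0.014. Rpl37a, a zinc-binding protein of the large subunit, stood at 9.070, 9.049 and 9.002 on triclosan arrays, against 9.142, 9.092 and 9.080 on DMSO arrays, without overlap (-0.064, adjusted p = 0.469 in limma). Rpl13 (-0.064), Rpl14 (-0.057) and Rps12 (-0.056) completed the 5 lowest. At the other end Rpl27 stood at 4.27, 4.31 and 4.28 on triclosan arrays, against 4.26, 4.22 and 4.25 on DMSO arrays, without overlap (0.041, interval -0.033 to 0.12). Rps4x (0.031), Rpl28 (0.029), Rpl27a (0.028) and Rpl30 (0.027) followed. Arrays of triclosan and DMSO did not overlap for 3 of 77 members, where they did not for 19% of all genes.

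With diclosan no ribosomal protein transcript was called either, and Rps3a and Rpl35 had the lowest values. Of the 77 members 0 passed the test, where 0.00982% of all genes did, and 2 (Rps3a and Rpl35) reached an unadjusted p under 0.05, where 10.6% of all genes did. The median of members was -0.029, against 0.0045 over all genes, and without DMSO replicate 1 it was -0.0064. Members ran from -0.11 to 0.049, and all 77 intervals again lay within a 1.25-fold change, against 69.8% over all genes. Arrays of diclosan and DMSO did not overlap for 14 of 77 members, 12 of them lower, where they did not for 16.1% of all genes, 7.39% lower.

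Rps3a, a small subunit protein near the exit of the messenger RNA, stood at 8.76, 8.78 and 8.74 on diclosan arrays, against 8.91, 8.84 and 8.88 on DMSO arrays. All 3 diclosan arrays were below all 3 DMSO arrays, by a mean of -0.11 (interval -0.19 to -0.037), with a limma adjusted p of 0.323. Rpl35, a large subunit protein at the mouth of the tunnel through which the new chain leaves, stood at 8.92, 8.92 and 8.86 on diclosan arrays, against 9.06, 8.97 and 8.96 on DMSO arrays. These did not overlap either (-0.096, interval -0.18 to -0.012, adjusted p = 0.412 in limma). Rps20 (-0.078), Rpl7 (-0.073) and Rpl21 (-0.073) were the next lowest. The 5 highest were Rps4x (0.049), Rpl6 (0.042), Rpl28 (0.041), Rpl10 (0.037) and Rps4y2 (0.026), and none passed the test.

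With CCPB, the compound without the hydroxyl group, the transcripts of Rps3a and Rpl35 were slightly lower in the fit without the slide. No other member passed the test. The probe used for Rps3a read 8.87% below DMSO, and the probe used for Rpl35 read 8.36% below. These genes were 2 of 77 members (2.60%), both lower, where 28.3% of all genes passed the test, 14.3% higher and 14% lower. After the normexp background correction 4 members passed, all 4 higher, where 30.6% of all genes passed. Neither Rps3a (-0.056, limma adjusted p = 0.356) nor Rpl35 (-0.0080, adjusted p = 0.903) was among these 4. Before adjustment 4 members had p under 0.05 (Rps3a, Rpl35, Rpl14 and Rpl10), where 41.2% of all genes did. Members had a median of -0.018 and ran from -0.13 to 0.10, with 25 above 0 and 52 below, against a median of 0.0054 over all genes, and without DMSO replicate 1 the median of members was -0.0035. The median size of the difference, whatever its sign, was 0.038 for members, 0.13 for all genes and 0.056 for the other 944 genes of the brightest 5%, of which 18.9% passed. All 77 intervals lay within a 1.25-fold change, against 53.9% over all genes and 91.9% over those 944 genes.

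Rps3a stood at 8.72, 8.73 and 8.77 on CCPB arrays, against 8.91, 8.84 and 8.88 on DMSO arrays. The groups did not overlap, and their means were 8.74 ± 0.025 and 8.88 ± 0.031 (SD, n = 3 each), a difference of -0.13 (interval -0.21 to -0.058, limma adjusted p = 0.0176). Rpl35 stood at 8.90, 8.87 and 8.85 on CCPB arrays, against 9.06, 8.97 and 8.96 on DMSO arrays, again without overlap and with DMSO replicate 1 the highest. Its within-group SDs were 0.028 with CCPB and 0.057 with DMSO, and the difference was -0.13 (interval -0.21 to -0.042, limma adjusted p = 0.0333). With the slide as a block Rps3a differed by -0.10 (limma adjusted p = 0.405) and Rpl35 by -0.069 (adjusted p = 0.630), 0 members passed, and 3.46% of all genes did. Diclosan replicate 3, on the slide of the CCPB arrays, was at 8.86 for Rpl35, against 8.92 and 8.92 for diclosan replicates 1 and 2. For Rps3a it was at 8.74, against 8.76 and 8.78. Neither call held for every set of arrays. The limma adjusted p of Rps3a was 0.0614 without the first DMSO array, 0.0507 without the third, and 0.0574 and 0.0549 without CCPB replicates 1 and 2. In these 4 fits its difference lay between -0.13 and -0.12. The adjusted p of Rpl35 was 0.109 and 0.0604 without DMSO replicates 1 and 2, and 0.0845 and 0.10 without the second and the third CCPB array, with differences from -0.14 to -0.094. Marker sums of other cell types also differed with CCPB. They ran from 9.35 to 10.4 on CCPB arrays and from 14.4 to 15.7 on DMSO arrays for stellate cells and fibroblasts (7 markers). For endothelial cells (4 markers) they ran from 9.51 to 9.84 on CCPB arrays and from 8.16 to 8.61 on DMSO arrays. For cholangiocytes (5 markers) they ran from 3.68 to 3.77 with CCPB and from 3.002 to 3.171 with DMSO, and for macrophages (5 markers) from 5.80 to 6.27 with CCPB and from 5.05 to 5.64 with DMSO. Single markers of a type could go both ways. Those of stellate cells and fibroblasts differed by -0.72 to 0.52 with CCPB (1 passed as higher and 1 as lower). Those of cholangiocytes differed by -1.43 to 0.43 (3 higher and 1 lower). The measured markers of endothelial cells (0.19 to 0.38) and of macrophages (0.19 to 0.32) were all higher, and 1 of each passed. These counts stand beside the 28.3% of all genes that passed. With the slide as a block 1 stellate cell and fibroblast marker passed, as lower, and 0 of cholangiocytes, endothelial cells or macrophages. The diclosan macrophage sums (5.75 to 6.22) also lay above those of DMSO, and the diclosan sums of the other types overlapped with DMSO. The part of these cells in the result was not tested.

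Rpl10, which joins the large subunit late in assembly and lies close to the catalytic centre, was the member with the highest value. It stood at 7.91, 7.93 and 7.97 on CCPB arrays, against 7.87, 7.82 and 7.81 on DMSO arrays. All 3 CCPB arrays were above all 3 DMSO arrays, by 0.10 (interval 0.022 to 0.19), with a limma adjusted p of 0.0591. Diclosan replicate 3, the diclosan array on the slide of the CCPB arrays, was at 7.91, and diclosan replicates 1 and 2 were at 7.85 and 7.84. With the slide as a block the difference was 0.038 (interval -0.10 to 0.18). Rpl26 (0.085), Rps4y2 (0.070), Rpl36a (0.070) and Rpl39 (0.063) were the next highest.

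Rpl14 and Rps18 were low with CCPB and differed between slides within diclosan. Rpl14 stood at 8.54, 8.53 and 8.51 on CCPB arrays, against 8.68, 8.63 and 8.60 on DMSO arrays (-0.11, limma adjusted p = 0.110). On diclosan arrays it was 8.62, 8.67 and 8.49, with replicate 3 at the low end, 0.15 below the mean of the others, and with the slide as a block its sign turned to 0.044. Rps18 stood at 8.99, 8.97 and 8.98 on CCPB arrays, against 9.10, 9.06 and 9.06 on DMSO arrays (-0.088, adjusted p = 0.142 in limma). Diclosan replicate 3 was at 8.95, against 9.08 and 9.08 for diclosan replicates 1 and 2, and the blocked difference was 0.041. Rpl21 (-0.077) was the fifth lowest. Arrays of CCPB and DMSO did not overlap for 29 of 77 members, 19 of them lower, where they did not for 50.1% of all genes, 24% lower. With the slide as a block members had a median of 0.0084 and ran from -0.11 to 0.13.

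**Figure D2:**
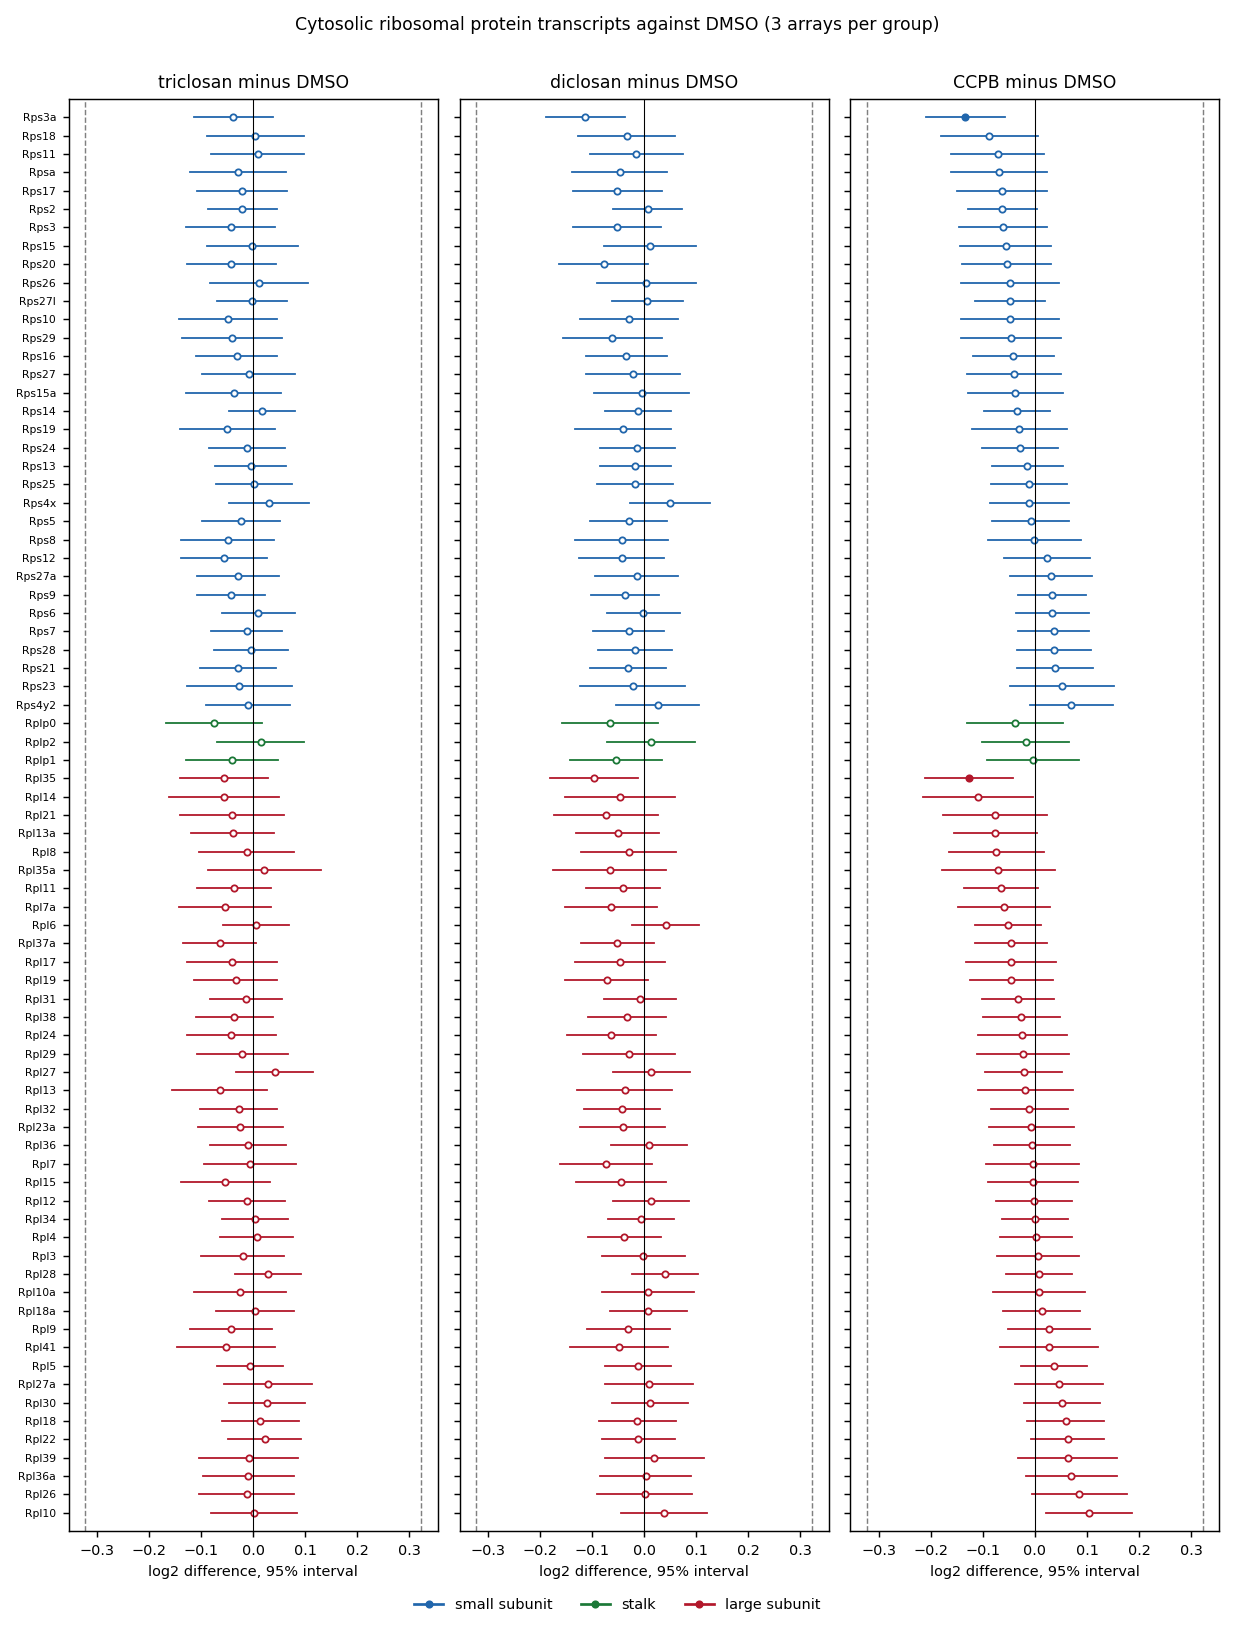
Log2 difference from DMSO of each of the 77 members (points) with its 95% interval (lines), for triclosan, diclosan and CCPB, ordered within small subunit, stalk and large subunit by the CCPB value; filled points passed limma's test over all genes and dashed lines mark a 1.25-fold change. Rps3a and Rpl35 with CCPB are the filled points, and every interval lies between the dashed lines.

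**Figure D3:**
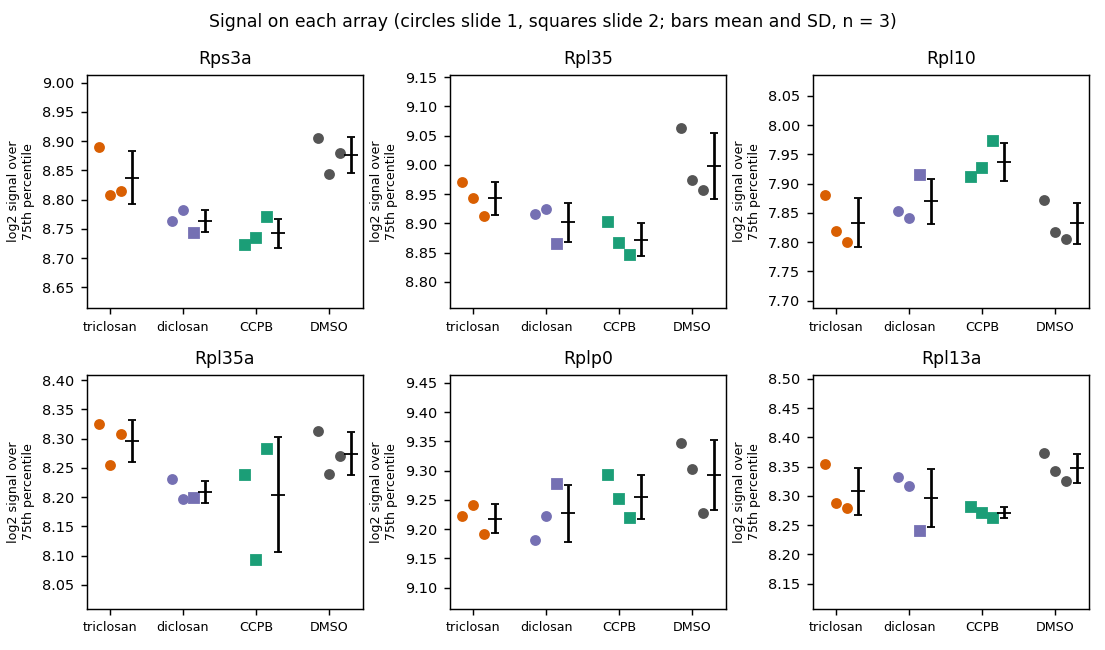
Log2 signal over the array's 75th percentile on each array for Rps3a, Rpl35, Rpl10, Rpl35a, Rplp0 and Rpl13a, with circles for slide 1, squares for slide 2 and bars for the mean and SD of 3 arrays. CCPB and DMSO arrays do not overlap for Rps3a, Rpl35, Rpl10 and Rpl13a, and they overlap for Rpl35a and Rplp0.

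Values by subunit were as follows. With CCPB 1 of 33 small subunit members, 1 of 41 large subunit members and 0 of 3 stalk members passed, where 28.3% of all genes did, and the medians were -0.035 for the small subunit, -0.0054 for the large subunit and -0.018 for the stalk. The difference between subunits was not tested. With triclosan the medians were -0.021 for the small subunit, -0.013 for the large subunit and -0.040 for the stalk. With diclosan they were -0.022, -0.029 and -0.053 in the same order. The 3 comparisons share the DMSO arrays, so their values are set side by side and not correlated.

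Values of members with a known role outside the ribosome or a common use were as follows. Rpl5 and Rpl11, which bind the 5S RNA and restrain the p53 inhibitor MDM2 when free, differed by -0.0065 and -0.036 with triclosan, by -0.012 and -0.040 with diclosan and by 0.036 and -0.066 with CCPB. Rpl5 stood at 8.61, 8.60 and 8.59 on triclosan arrays, 8.57, 8.61 and 8.60 on diclosan arrays, 8.64, 8.62 and 8.67 on CCPB arrays and 8.62, 8.61 and 8.59 on DMSO arrays. The CCPB arrays were slightly above the DMSO arrays, and the other groups overlapped with DMSO. Rps6, the substrate of S6 kinase downstream of mTORC1, differed by 0.0094 with triclosan, -0.0013 with diclosan and 0.034 with CCPB. Rpsa, also known as the laminin receptor, differed by -0.029 with triclosan, -0.047 with diclosan and -0.070 with CCPB. Rps27a, made as a fusion with ubiquitin, differed by -0.030, -0.014 and 0.031 in the same order of compounds. Rps19, the gene most often mutated in Diamond-Blackfan anemia in humans, differed by -0.050, -0.040 and -0.030. Rpl22 differed by 0.022, -0.011 and 0.063, and Rpl3, at the catalytic centre, by -0.020, -0.0015 and 0.0061. None of these values passed the test. CCPB and DMSO arrays also did not overlap for Rps6 and Rpl22 (CCPB higher) and for Rpl11 and Rpsa (CCPB lower). They overlapped for Rps27a, Rps19 and Rpl3, and they did not overlap for 50.1% of all genes.

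Among the common reference genes Rpl13a and Rps18 tended to be lower on slide 2. Rpl13a stood at 8.35, 8.29 and 8.28 on triclosan arrays, 8.33, 8.32 and 8.24 on diclosan arrays, 8.28, 8.27 and 8.26 on CCPB arrays and 8.37, 8.34 and 8.33 on DMSO arrays. The arrays of slide 2 lay between 8.24 and 8.28 and those of slide 1 between 8.28 and 8.37 (CCPB difference -0.076, interval -0.16 to 0.0036, limma adjusted p = 0.137). The CCPB difference of Rpl13a with the slide as a block was 0.0084 (interval -0.11 to 0.13). For Rps18 the arrays of slide 2 lay between 8.95 and 8.99 and those of slide 1 between 9.04 and 9.13. Rplp0 was at 9.29, 9.25 and 9.22 on CCPB arrays, against 9.35, 9.30 and 9.23 on DMSO arrays, with overlap (-0.038, interval -0.13 to 0.054).

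The 3 compounds were compared with each other at the same dose and time in 3 pairs, and 0 of 77 members passed in each pair. This was also so when the p-values were adjusted over all genes of the 3 pairs together. Then 0.825% (triclosan against diclosan), 14.8% (triclosan against CCPB) and 12.1% (diclosan against CCPB) of all genes passed. Between triclosan and diclosan, which differ by a chlorine atom, 0% of all genes passed when the pair was adjusted alone. Members had a median of 0.0057 and ran from -0.037 to 0.087, and 0 had an unadjusted p under 0.05, where 6.83% of all genes did. Rpl35a was highest (0.087, interval -0.021 to 0.20), followed by Rps3a (0.074) and Rpl7 (0.068), and Rpl10 (-0.037), Rpl6 (-0.036) and Rps4y2 (-0.036) were lowest. Arrays did not overlap for 4 of 77 members, where they did not for 9.94% of all genes. All 77 intervals lay within a 1.25-fold change, against 71.2% over all genes and 98.8% over the other 944 genes of the brightest 5%.

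Between triclosan and CCPB, which differ in the hydroxyl group and in chlorination, 20.5% of all genes passed and 0 members did, with 5 members at an unadjusted p under 0.05 where 36.2% of all genes were. Members had a median of -0.00038 and ran from -0.10 to 0.096. Rps3a stood at 8.89, 8.81 and 8.82 on triclosan arrays, against 8.72, 8.73 and 8.77 on CCPB arrays, without overlap (0.096, interval 0.020 to 0.17, limma adjusted p = 0.0722). Rpl10 stood at 7.88, 7.82 and 7.80 on triclosan arrays, against 7.91, 7.93 and 7.97 on CCPB arrays, without overlap (-0.10, interval -0.19 to -0.021, limma adjusted p = 0.0722). Rpl35a (0.092) and Rps18 (0.092) were the next highest, and Rpl26 (-0.098) and Rpl41 (-0.080) the next lowest. Arrays did not overlap for 20 of 77 members, where they did not for 43.4% of all genes. The pair shares no slide, so slide and compound cannot be told apart except through the block, with which 0 members and 1.41% of all genes passed.

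Between diclosan and CCPB, which differ in the hydroxyl group and in the position of a chlorine atom, 14.4% of all genes passed and 0 members did, with 4 members at an unadjusted p under 0.05 where 31.4% of all genes were. Rpl6 stood at 7.22, 7.19 and 7.21 on diclosan arrays, against 7.10, 7.12 and 7.12 on CCPB arrays, without overlap (0.093, interval 0.030 to 0.16, limma adjusted p = 0.0563). Diclosan replicate 3, at 7.21 on the slide of the CCPB arrays, was also above them. Rps2 (0.070) and Rps15 (0.068) were the next highest, and Rpl26 (-0.084), Rpl41 (-0.076) and Rps23 (-0.074) were lowest. Arrays did not overlap for 23 of 77 members, where they did not for 32.3% of all genes. Members had a median of -0.0054. All 77 intervals lay within a 1.25-fold change, against 58.7% over all genes and 94.8% over the other 944 genes of the brightest 5%. Between triclosan and CCPB all 77 did too, against 57.3% and 92.7% in the same order. Between diclosan and CCPB Rps3a differed by 0.021 (interval -0.055 to 0.097) and Rpl35 by 0.030 (interval -0.054 to 0.11). A p that misses the threshold does not show that the compounds act alike, and the intervals bound the differences.

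Different probes of a gene did not always give the same sign. Of the members 53 had several kept probes, and the 186 kept probes of members were also tested one by one. With triclosan and with diclosan 0 of 186 probes passed, where 0.0701% and 0.00825% of all probes did. With CCPB 4 probes were higher and 2 were lower, where 27.2% of all probes passed, and the median range between the probes of a gene was 0.068. The probes that passed as lower were the brightest ones of Rps3a (its only probe) and Rpl35. The other probe of Rpl35 differed by 0.16 (interval 0.0060 to 0.31, limma adjusted p = 0.112), which is the opposite sign, and the mean of both probes differed by 0.017. The higher calls fell on dimmer probes of Rpl32 (0.22), Rpl7a (0.16), Rps12 (0.14) and Rps18 (0.089), named here because they passed. Their brightest probes differed by -0.011, -0.060, 0.023 and -0.088 in that order. Rpl27a had the widest range, 0.33, with 1 probe at 0.34 and the others at 0.047 and 0.0078.

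**Figure D4:**
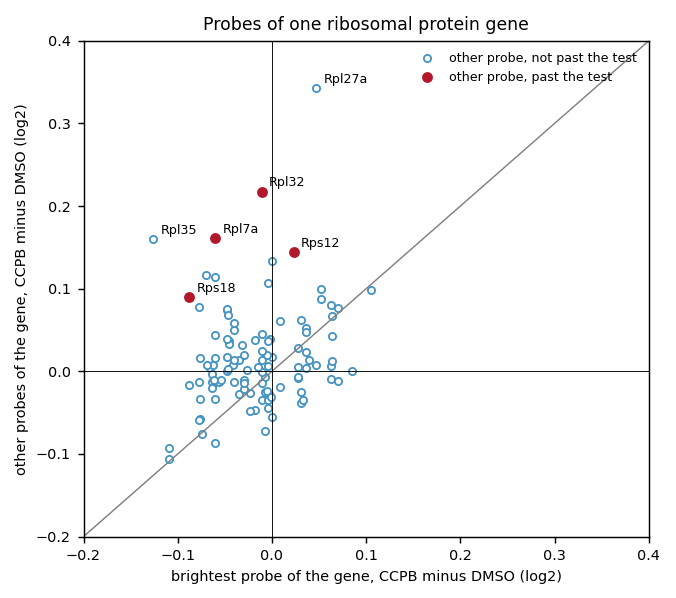
Log2 difference between CCPB and DMSO of the other kept probes of a member (vertical) against its brightest probe (horizontal), with the line of equality; filled points are other probes that passed limma's test. The 4 filled points lie above the line, and the second probe of Rpl35 (0.16) is opposite in sign to the brightest (-0.13).

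Other genes of protein synthesis were read on the same arrays from lists written for this purpose with earlier results of these data known. With triclosan and with diclosan 0 genes of any of these 5 lists passed, where 0.0639% and 0.00982% of all genes did. With CCPB the counts stand beside the 28.3% of all genes that passed. Rpl22l1, the paralogue of Rpl22, which the rule set aside, differed by 0.15 (limma adjusted p = 0.112). Of 11 elongation and other TOP-motif genes 2 rose, Hnrnpa1 (0.22), an RNA-binding protein, and Btf3 (0.099), a partner of the nascent chain, and Nap1l1 (-0.16), a histone chaperone, fell.

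Of 32 initiation factors measured with CCPB 4 rose and 2 fell, with a median of 0.036. The subunit Eif3m differed by 0.15, the helicase cofactor Eif4b by 0.11 and the subunit Eif3b by -0.16. Of 70 ribosome assembly genes 10 rose and 1 fell, also with a median of 0.036. Polr1e, a subunit of the polymerase that makes ribosomal RNA, rose by 0.25, the assembly factor Ppan by 0.15 and nucleolin (Ncl) by 0.11. Of 64 mitochondrial ribosomal protein genes 15 rose and 1 fell, with a median of 0.049, among them Mrpl16 (0.19), Mrpl47 (0.26) and Mrpl1 (0.17). Of 27 genes of mTORC1 and translation control 3 rose and 5 fell, with a median of -0.044. Max (-0.32), the partner of Myc, Ddit4 (-0.42), an inhibitor of mTORC1, and Eef2k (-0.33), the kinase that inactivates Eef2, fell. With the slide as a block 1 gene of these 5 lists passed between CCPB and DMSO, an assembly gene that was higher, where 3.46% of all genes passed.

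**Figure D5:**
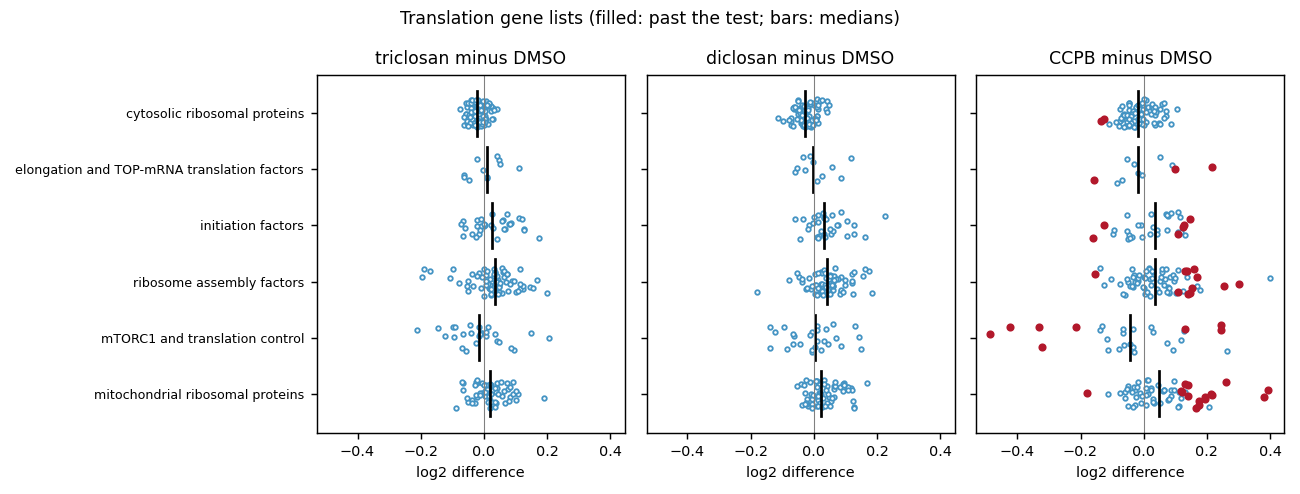
Log2 difference from DMSO (horizontal) of the cytosolic ribosomal protein genes and of 5 lists of translation genes (rows), for triclosan, diclosan and CCPB; each point is a gene, filled points passed limma's test over all genes and black bars are list medians. With CCPB 16 of 64 mitochondrial ribosomal protein genes are filled, against 2 of 77 cytosolic ones and 28.3% of all genes, a contrast that was not tested. With the slide as a block 0 genes of either set passed, where 3.46% of all genes did.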

How the data were processed

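Hybridisation of Cy3-labelled RNA was read on 12 one-colour Agilent rat arrays. Per the file headers, the scanner output was made by Feature Extraction, and its processed intensity is background-subtracted, detrended and not scaled between arrays. A linear signal table deposited by the authors, already divided by each array's 75th percentile, served as an alternative. Columns of other samples numbered 0.

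Spots of a probe were averaged as log2 intensity without non-uniform spots (1 to 8 per array), and each array's 75th percentile was subtracted. Probes above background on all 3 arrays of a group were kept (24254 of 45598), and the brightest stood for its gene, named through RefSeq symbols of the rat. A single fit by group (limma 3.58.1, R 4.3.3 and the package data.table, version 1.17.8), tested on simulated data, gave 6 two-sided contrasts, adjusted by Benjamini-Hochberg over 20359 genes (threshold 0.05). Intervals are 95% and unadjusted. The number of arrays limits the precision.

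Named members were the 5 largest differences each way against DMSO, the 3 largest each way between compounds and a fixed set, with up to 3 genes of smallest p per pathway list. Members and lists were chosen with earlier results of these data known, and lists were not tested as sets. The brightest 5%, the 1.25-fold bound and the single probes named were chosen after values were seen.

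Alternatives were median centring, quantile normalization, normexp (offset 50, on median spot signals, as no mean signal was used), the value table, the filter, the mean of probes, slide and replicate blocks, single slides, the 2 groups alone and each array left out.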

Additional observations from a re-analysis of the deposited data

How the results depend on the processing

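The count of called members between CCPB and DMSO was 2 in the fit reported, where 28.3% of all genes passed. It was 3 with quantile normalization (Rpl14 added), where 29.1% of all genes passed, and 4 with the normexp background, where 30.6% did. These 4 were all higher (Rpl18, Rpl9, Rps28 and Rps9), where both reported calls were lower. It was 1 with the mean of all probes of a gene (27.7% of all genes passed) and with only the 2 groups compared (31.1%). It was 0 with median centring (16.3% of all genes), with no filter on dim probes (7.19%) and with the slide as a fixed block (3.46%). It was also 0 with the slide as a random block (8.99%) and with the replicate block and slide together (1.47%). It ran from 0 to 1 with each DMSO or CCPB array left out, where 18% to 19.6% of all genes passed. It was 0 without DMSO replicate 1 or CCPB replicate 2. Between triclosan and CCPB it was 4 with quantile normalization (all higher), where 21.1% of all genes passed, and 4 with normexp (all lower), where 25% did. Between diclosan and CCPB it was 1 with quantile normalization (14.5% of all genes) and 2 with normexp (15.2%). The fit reported gave 0 for both pairs, where 20.5% and 14.4% of all genes passed. For the other comparisons it was 0 under every alternative run, where at most 0.825% of all genes passed. With the mean of all probes the difference of Rpl35 between CCPB and DMSO turned to 0.017 (limma adjusted p = 0.797). For calls lost under another filter, with fewer arrays or with other probes, the alternative itself changes the genes, arrays or probes tested, and for the others the cause was not tested.

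The median of members was 0.0050 (triclosan against DMSO), -0.0038 (diclosan against DMSO), 0.027 (triclosan against CCPB) and 0.018 (diclosan against CCPB) with quantile normalization. Between CCPB and DMSO it was -0.046 with median centring and 0.0084 with the slide as a fixed block. With arrays left out it ran from -0.044 to -0.0024 between triclosan and DMSO and from -0.026 to 0.0071 between triclosan and CCPB. Among 4370 alternative values of 38 named members, 4342 kept their side of the threshold, 21 lost a call, 6 gained one and 1 turned, and 444 uncalled values changed sign.

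Same-numbered arrays deviated with correlations of -0.16 to 0.12, over 0.1 in 1 of 18 pairs, so the numbers were not taken to pair the arrays. The median deviation of members was highest on replicate 1 in each group, and whether this reflects a pairing was not tested. With the replicate block the count between CCPB and DMSO was 2, with Rps3a and Rpl35 called, where 27.2% of all genes passed. It was 0 in the other comparisons, where 18.6% (triclosan against CCPB), 14% (diclosan against CCPB) or fewer of all genes passed. All 77 intervals stayed within a 1.25-fold change in the 6 comparisons under the alternatives run, except for Rplp0 between CCPB and DMSO with the replicate block and slide together, and for Rpl3l, which enters only without the filter. Differences of a few percent lie near the limit of 3 arrays per group.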
